A study of Mus musculus with 94 samples.

Results

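The effect of lamivudine on LINE-1 (L1) RNA was examined in the cortex of trisomic Ts65Dn (TS) mice, by comparing treated (TS-t) with non-treated (TS-nt) animals. The libraries were chosen by their labels, and 22 of the 94 libraries of the series belong to this comparison: 13 TS-t and 9 TS-nt. The measurement was the number of reads counted on each of 430083 annotated L1 elements (single genomic copies), which fall into 133 subfamilies by name. In TS cortex 270511 elements had at least 1 count, and 2049 had a count in all 22 libraries.

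All mice were males, labelled as 3 to 4 months old for the experiments, and bred from B6EiC4Sn.BLiA-Ts(1716)65Dn/DnJ females and B6C3F1/OlaHsd hybrid males. Ts65Dn is a model of Down syndrome that carries an additional marker chromosome with parts of mouse chromosomes 16 and 17. TS-t mice received lamivudine at 3 mg/kg in their drinking water for 4 months, and TS-nt mice received water. Tissue was taken after the behavioural tests, and the age at that time is not given in the sources used here. The other cortex libraries, of 17 treated (WT-t) and 9 non-treated (WT-nt) wild-type littermates, were part of the model and gave the spread between mice, and the hippocampus of 21 of the 22 TS mice was used for comparison. Each library is labelled with 1 animal, but the study's methods also mention pooling of samples in groups of 3 per condition, so that it is not known whether a library stands for 1 mouse. The table holds L1 elements only, so the tissue could not be checked against marker genes of neurons or glia.

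L1 elements are retrotransposons that copy themselves through an RNA, which is reverse transcribed and inserted at a new site. In the mouse the L1Md_A, L1Md_T and L1Md_Gf subfamilies hold the youngest copies, including those still able to move, the L1Md_F and L1_Mus groups and the Lx groups are older and specific to rodents, and the L1M and HAL1 groups are old fragments shared with other mammals. Lamivudine is a nucleoside analogue that blocks reverse transcriptases, and the counts measure the RNA before that step. In total RNA, reads on an L1 copy inside a gene can come from the transcript of that gene, and such reads cannot be told apart here from those of an L1's own promoter.

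The copies differ in where their RNA can come from, and 1 that lies in an exon is shown for that reason. L1Md_F2_dup59906, which the study lists for trisomy, is on the minus strand at chr17:3111781-3112547 of GRCm38, and 758 of its 767 bases are in an exon of the transcribed pseudogene Gm21926 on the same strand. The first 150 bases that lie in the exon are given 5′ to 3′, from the GENCODE transcripts of GRCm38.
L1Md_F2_dup59906: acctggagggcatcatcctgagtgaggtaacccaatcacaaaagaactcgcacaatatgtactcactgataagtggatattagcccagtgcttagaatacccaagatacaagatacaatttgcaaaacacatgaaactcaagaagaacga
The exonic part has a GC content of 46.4%.

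The total of L1 counts per library describes depth, since it is not divided by the reads of the library and cannot tell sequencing depth from the level of L1 RNA. The lowest, median and highest total was 258311, 305173 and 763030 in TS-nt and 252114, 335492 and 641582 in TS-t. The TS-t mean was 350665 ± 99945 (SD, n = 13), the TS-nt mean 344970 ± 158704 (SD, n = 9), and the exact two-sided permutation test gave p = 0.913 (adjusted p = 0.978 over 3 library measures). Neither the number of elements with a count (medians 45258 and 47942, exact p = 0.978) nor the share of the most abundant element (medians 3.73% and 3.79%, exact p = 0.396) passed. Some libraries stood apart. TS-nt mouse 27 had the highest total of the comparison and counts on 132569 elements, TS-t mouse 38 had counts on 97606, and TS-t mice 2 and 8 and TS-nt mouse 23 lay outside 3 median absolute deviations on principal component 1. Of the WT cortex libraries in the model, those of WT-t mice 1, 3, 4 and 47 and WT-nt mouse 24 did so too. WT-t mouse 1 had counts on 3168 elements only, and WT-nt mouse 24 had a total of 1165192. Animal labels began with 20 for all 9 TS-nt mice but for 8 of the 13 TS-t mice, with 19 for 4 and with 18 for 1; what these numbers stand for is not given in the sources used here. As whole tissue was sequenced, fewer cells of a type and less RNA per cell cannot be told apart.

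No single L1 element passed the threshold for lamivudine in TS cortex. After filtering, 5416 elements with 50.5% of the L1 counts were tested with edgeR's quasi-likelihood test, and 0 (0%) had a Benjamini-Hochberg adjusted p below 0.1, the lowest value being 1.00. DESeq2 on the same elements also called 0. At an unadjusted p below 0.05 edgeR found 49 elements (0.905% of those tested), 34 higher (0.628%) and 15 lower (0.277%) in TS-t, and DESeq2 found 125, 101 higher and 24 lower. With only the TS libraries in the model edgeR found 87 (46 higher, 41 lower) of the 2989 elements that then passed the filter. DESeq2 on those libraries found 182 (124 higher, 58 lower) of 5416. Without TS-nt mouse 27 edgeR found 92 of 5750, and 0 were called. With the second threshold, an unadjusted p below 0.05 together with a log2 fold change of at least 1.5 in size, 12 elements (0.222%) were found. Over all elements tested, 2781 were higher and 2635 lower in TS-t, with a median log2 fold change of 0.02, and with DESeq2's size factors 57.6% instead of 51.3% were higher. The share of 0.905% is below the fraction of 0.05 expected when nothing differs, and the cause was not tested. Without the libraries far on the first component edgeR found 129 of 5405 (75 higher, 54 lower), and 0 were called. The depth and the spread between the 48 cortex libraries (coefficient of variation 0.744), among them those that stood apart, limited what could be seen. The 95% interval of a fold change had a median half-width of 1.13 on the log2 scale, or 2.19-fold, and it stayed within a 2-fold change in either direction for 884 elements.

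**Figure D1:**
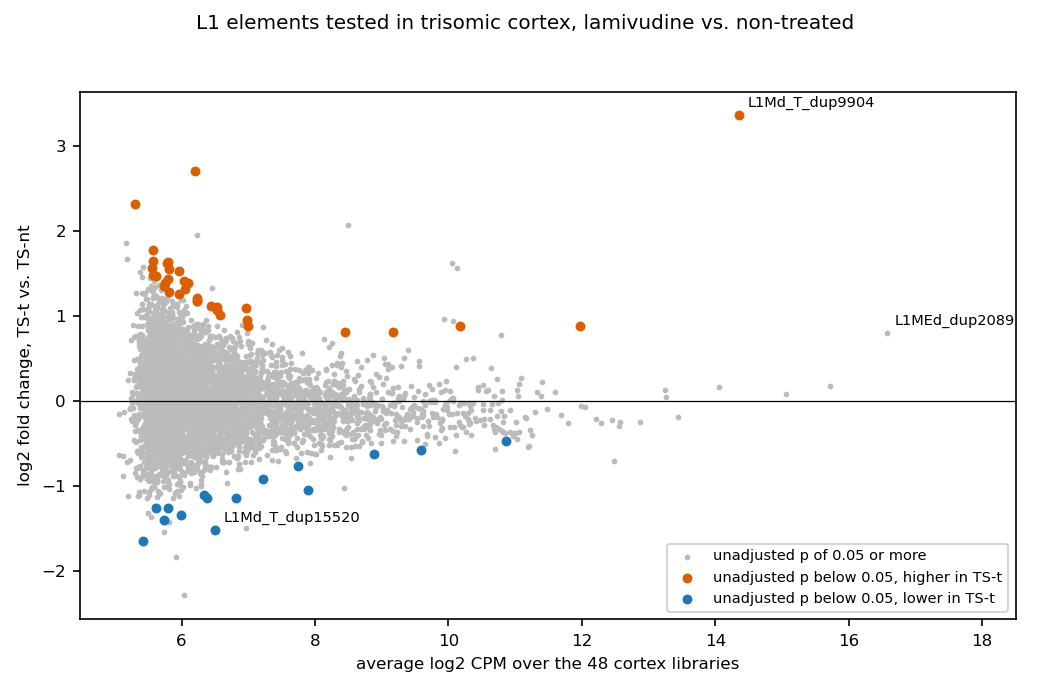
Each point is 1 of the 5416 L1 elements tested, with its average log2 CPM over the 48 cortex libraries on the x axis and its log2 fold change of TS-t vs. TS-nt on the y axis; coloured points have an unadjusted p below 0.05 (34 higher, 15 lower). Fold changes spread most among elements of low level, and L1Md_T_dup9904 stands apart at high level with a log2 fold change of 3.35.

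Levels of single elements are given as CPM, the count of an element relative to the TMM-scaled total of the elements tested, scaled to 1e+06. The 8 higher and the 8 lower elements with the lowest unadjusted p are described, all with an adjusted p of 1.00 in edgeR's quasi-likelihood test, so that none of them is a called change. Their ranking used this same contrast, and their values are a description.

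Among the higher ones were 2 elements of Lx9, an old rodent subfamily. Lx9_dup10582 had a CPM of 267 at the lowest, 392 at the median and 591 at the highest in TS-nt, and 321, 506 and 2505 in TS-t, a log2 fold change of 0.81 ± 0.31 (SE, unadjusted p = 0.010). The groups overlapped, 4 TS-t mice were above the highest TS-nt mouse, and with only the 8 TS-t mice whose labels begin with 20 the log2 fold change was 0.21. Lx9_dup4057 had 0, 11.7 and 46.9 CPM in TS-nt and 0, 37.2 and 120 in TS-t, and 6 of the 13 TS-t mice were above every TS-nt mouse. Its log2 fold change was 1.62 ± 0.67 (SE), and 1.89 with the labels that begin with 20.

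The younger L1Md_F group gave another pair. L1Md_F3_dup12987 ranged from 278 to 1420 CPM in TS-nt (median 771) and from 580 to 6254 in TS-t (median 1011), with a log2 fold change of 0.88 ± 0.36 (SE, unadjusted p = 0.019). Mice 8 and 14 had the highest values, 3942 and 6254 CPM, while mouse 2 was at the TS-t median. Without mice 2, 8 and 14 together the log2 fold change was 0.10. L1Md_F2_dup14509 had 18 counts in TS-nt and 85 in TS-t, at medians of 6.39 and 32.9 CPM, and its log2 fold change of 1.77 ± 0.74 (SE) became 1.18 without those 3 mice.

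The remaining higher elements were of low level. Lx7_dup34282 had medians of 64.1 CPM in TS-nt and 142 in TS-t and a log2 fold change of 1.09 ± 0.46 (SE). Lx8_dup374 (36 and 137 counts), L1_Mus1_dup7695 (44 and 143 counts) and L1_Mus3_dup180 (13 and 89 counts) had log2 fold changes of 1.63, 1.54 and 2.31. For L1_Mus3_dup180, 2 of 9 TS-nt libraries and 8 of 13 TS-t libraries had any count.

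Elements lower in TS-t included the one with the lowest p of the whole test. L1Md_T_dup15520, a copy of the young L1Md_T subfamily, had 69.6, 105 and 254 CPM (lowest, median and highest) in TS-nt and 0, 33.9 and 111 in TS-t. Of the 13 TS-t mice, 10 were below the lowest TS-nt mouse, and the log2 fold change was −1.52 ± 0.52 (SE, 95% interval −2.54 to −0.50, unadjusted p = 0.0036). It was −1.34 with the TS-t labels that begin with 20. In WT cortex the same contrast had a log2 fold change of 0.99 (unadjusted p = 0.056), and in TS hippocampus 0.68 (unadjusted p = 0.21).

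Of the 5416 elements tested, 421 were of L1MA and L1MB, 366 of L1MC and L1MD, 310 of L1ME, 323 of L1M1 to L1M8 and 26 of HAL1. These old groups made up 5 of the other 7 lower elements, too few for a comparison with those numbers. L1MA7_dup1680, the most abundant of them, had 429, 563 and 1143 CPM in TS-nt and 285, 382 and 643 in TS-t, and 10 of the 13 TS-t mice were below the lowest TS-nt mouse. Its log2 fold change was −0.63 ± 0.28 (SE, unadjusted p = 0.028). HAL1_dup3355 had medians of 92.3 CPM in TS-nt and 28.3 in TS-t, with 9 of 13 TS-t mice below every TS-nt mouse and a log2 fold change of −1.41 ± 0.62 (SE). L1MC2_dup979 (medians 35.1 and 10.6 CPM), L1MA4_dup4611 (177 and 75.6 CPM) and L1M5_dup3718 (150 and 112 CPM) had log2 fold changes of −1.65, −1.15 and −0.92. The other lower elements were Lx6_dup5624, with medians of 75.4 and 22.6 CPM and a log2 fold change of −1.34, and L1Md_F2_dup48127, with 344 and 156 CPM and −1.05. The sign of all 16 log2 fold changes was the same in each of the 24 to 32 alternatives that gave a value. This cannot tell whether the differences are stable, because the elements were ranked by this same contrast. Most alternatives also used the same libraries with only a single library left out, so a kept sign was likely from the start.

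**Figure D2:**
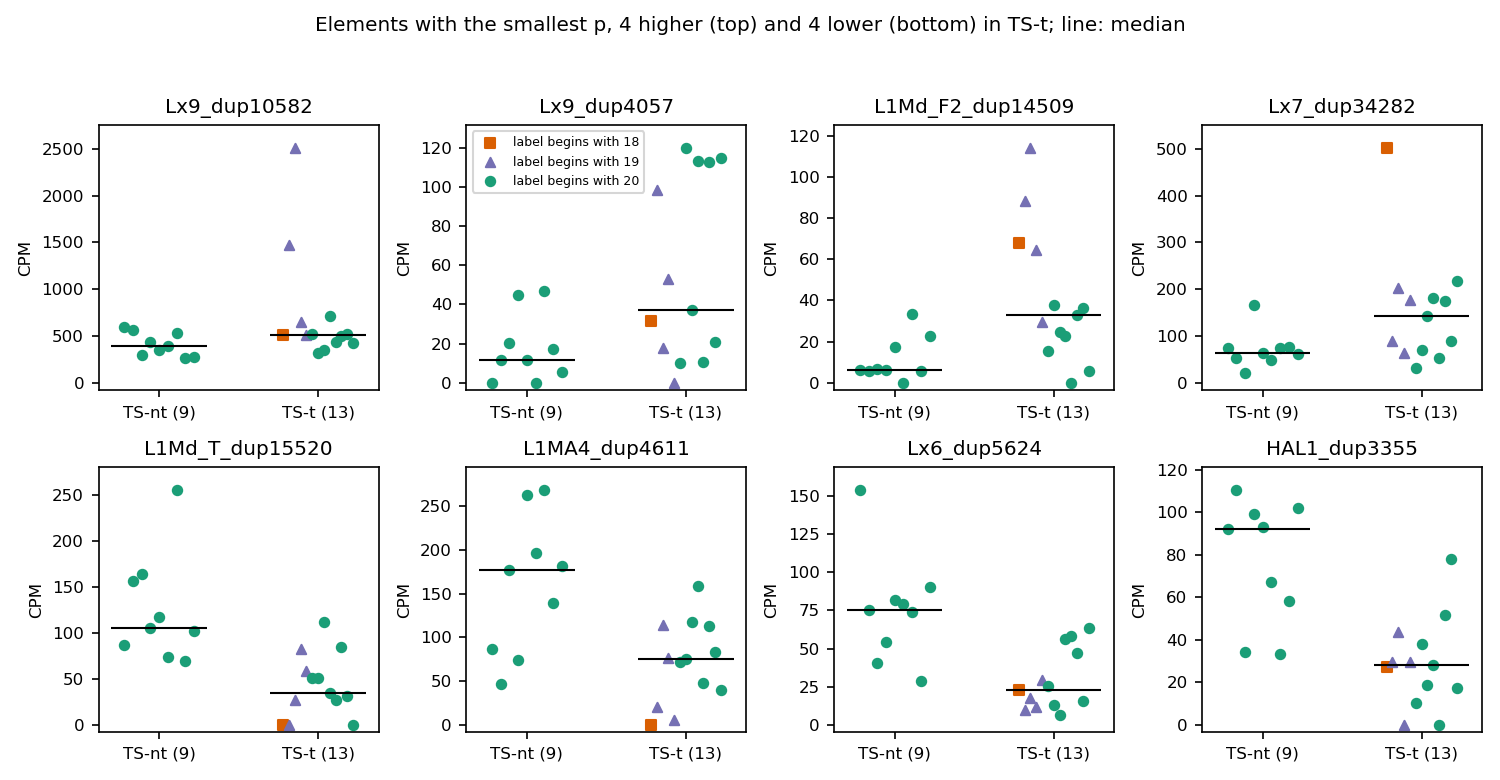
CPM of the 4 higher (top) and 4 lower (bottom) elements with the lowest unadjusted p, with 1 point per cortex library, the median as a line, and the shape and colour of a point giving the number its animal label begins with. TS-t and TS-nt points overlap in each panel, and for L1Md_T_dup15520 10 of 13 TS-t points are below the lowest TS-nt point at 69.6 CPM.

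Grouped by subfamily name into 17 classes, the elements tested showed medians near 0 in each class. The median log2 fold change was 0.10 for L1Md_A (127 elements), 0.05 for L1Md_T (164), 0.08 for L1Md_Gf (9), 0.06 for L1Md_F2 (509) and 0.09 for L1_Mus and L1_Mm (786), beside 0.02 over all 5416. Among the old groups it was −0.09 for L1MA and L1MB (421 elements), −0.09 for L1M1 to L1M8 (323), −0.03 for L1ME (310) and −0.17 for HAL1 (26). Elements at an unadjusted p below 0.05 were 0 of 127 for L1Md_A, 2 of 164 for L1Md_T, 4 of 509 for L1Md_F2 and 11 of 832 for Lx8, Lx9 and Lx10, where all elements together had 0.905%.

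Some of the most abundant copies differed widely between libraries. L1MEd_dup2089, of an old subfamily, had 38174, 67151 and 135381 CPM (lowest, median and highest) in TS-nt and 4892, 64412 and 467167 in TS-t. Its medians were close, and the TS-t range was set by mice 8 and 14 (467167 and 345231 CPM) at the top and mouse 38 at the bottom. The log2 fold change was 0.80 ± 0.55 (SE, unadjusted p = 0.15) with all mice and −0.25 with the TS-t labels that begin with 20. In the hippocampus of mouse 38 the copy had 61544 CPM, and in mouse 37 it had 849 CPM in hippocampus and 91163 in cortex.

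L1Md_T_dup9904 had the largest fold change of these abundant copies. It ranged from 63.8 to 13897 CPM in TS-nt (median 1919) and from 23.5 to 199331 in TS-t (median 2877). Mice 2, 8 and 14, whose labels begin with 18 or 19, had 76122, 199331 and 120186 CPM, and the other 10 TS-t mice were at or below 9783. The log2 fold change was 3.35 ± 1.53 (SE, unadjusted p = 0.034, adjusted p = 1.00 in edgeR's quasi-likelihood test) with all mice, −0.02 without those 3 mice and −0.17 with the labels that begin with 20. In the hippocampus of mice 2, 8 and 14 the copy had 130, 2224 and 1346 CPM, within the range of the 8 TS-nt hippocampi (81.5 to 5882 CPM).

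The other abundant copies had closer values in TS-t and TS-nt. L1ME3Cz_dup549 had medians of 53433 CPM in TS-nt and 52283 in TS-t and a log2 fold change of 0.18 (95% interval −0.14 to 0.49). For Lx7_dup29483 the medians were 32893 and 35844 CPM and the log2 fold change 0.08 (−0.24 to 0.39), for L1MEi_dup274 they were 16846 and 16173 CPM and 0.16 (−0.19 to 0.51), and for L1MC4_dup2661 12370 and 12085 CPM and 0.04 (−0.33 to 0.41). These intervals leave out changes above 1.5-fold in either direction.

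A copy that was picked after its values were seen, Lx3B_dup3459, had a low and a high group of mice, each with TS-t and TS-nt animals. In cortex 7 TS mice had at most 238 CPM and the other 15 at least 3805 CPM, with none between. Low mice were 4 of 9 TS-nt and 3 of 13 TS-t. In hippocampus each of the 21 TS mice with both tissues was on the same side as in cortex, with a limit of 1000 CPM set after the values were seen.

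**Figure D3:**
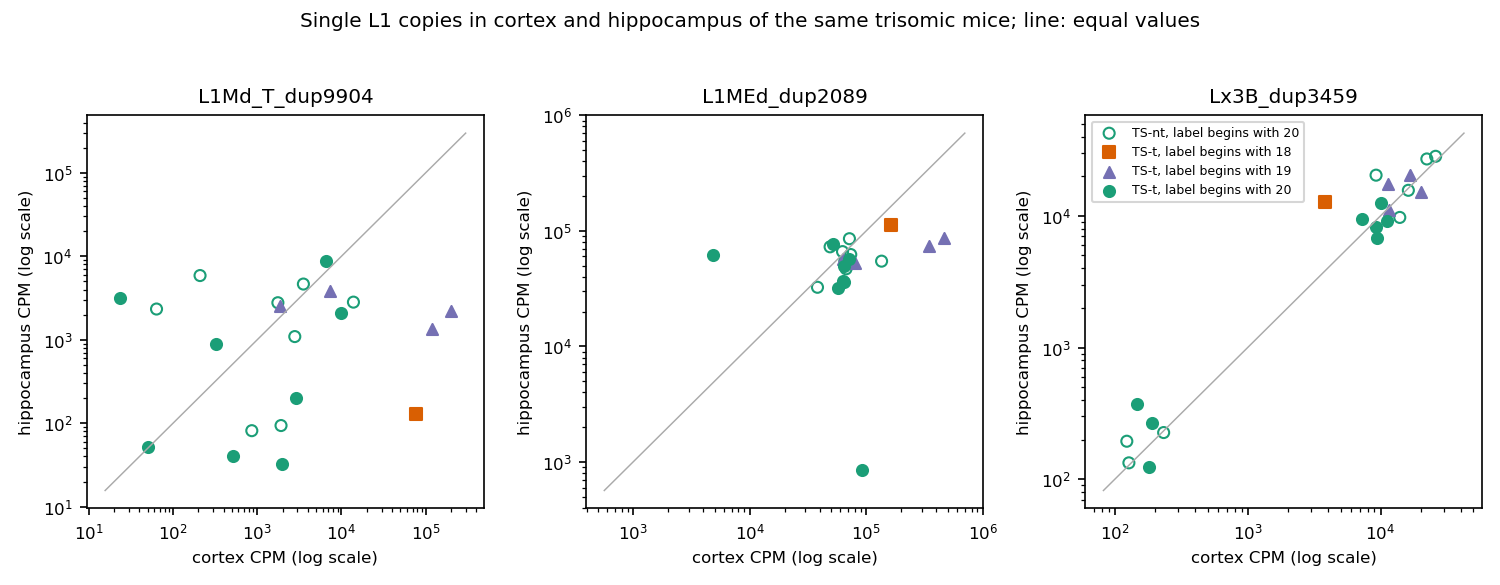
CPM of 3 copies in cortex (x axis) and hippocampus (y axis) of the same TS mice, both on log scales, with open points for TS-nt, filled points for TS-t, shapes for the number the animal label begins with, and a line of equal values. L1Md_T_dup9904 is at 76122 CPM or more in the cortex of 3 TS-t mice and at most 8766 in any TS hippocampus, and Lx3B_dup3459 forms a low and a high group that hold the same mice in both tissues.

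Counts summed over the copies of a subfamily gave narrower intervals, and no subfamily passed either. Of 133 subfamilies tested with edgeR's quasi-likelihood test, 0 (0%) had a Benjamini-Hochberg adjusted p below 0.1 (lowest 0.697), and DESeq2 also called 0. At an unadjusted p below 0.05 edgeR found 3 (2.26%), all lower in TS-t, and DESeq2 found 5, of which 1 was higher and 4 were lower. With only the TS libraries in the model edgeR found 15 (8 higher, 7 lower) and DESeq2 13 (6 higher, 7 lower), so that the direction depended on the libraries in the model. The number at an unadjusted p below 0.05 was 13 without TS-nt mouse 27 (3 higher, 10 lower), 7 without TS-t mouse 21, 5 without TS-t mouse 35, 1 without mouse 19, mouse 23 or mouse 40, 9 without the libraries far on the first component (6 higher, 3 lower), and 0 with the TS-t labels that begin with 20. The 95% interval had a median half-width of 0.21 on the log2 scale (1.16-fold), and it stayed within 1.5-fold in either direction for 107 subfamilies and within 2-fold for 129.

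The CPM of a subfamily is relative to the TMM-scaled total of all L1 counts. It therefore cannot be set beside the CPM of a single element, which is relative to the elements tested. The 6 L1Md subfamilies, which include those with the youngest copies, are given first. L1Md_A had 13503, 15198 and 16345 CPM (lowest, median and highest) in TS-nt and 13655, 16019 and 24131 in TS-t, a log2 fold change of 0.13 ± 0.10 (SE, 95% interval −0.07 to 0.33). L1Md_F2 had medians of 60926 and 63203 CPM and a log2 fold change of 0.13 (−0.04 to 0.30), L1Md_F of 2891 and 2872 CPM and 0.13 (−0.13 to 0.38), L1Md_F3 of 11522 and 11788 CPM and 0.16 (−0.12 to 0.44), and L1Md_Gf of 1022 and 1054 CPM and 0.07 (−0.26 to 0.39). All 5 intervals included 0, and each upper limit was below 1.5-fold.

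L1Md_T had the widest range. Its CPM was 22639, 23512 and 29872 in TS-nt and 22156, 24981 and 141646 in TS-t, with a log2 fold change of 0.77 ± 0.45 (SE, 95% interval −0.13 to 1.67, unadjusted p = 0.092). The single copy L1Md_T_dup9904 held 25.0% of the subfamily's counts in the 22 libraries, and 75.1%, 69.0% and 48.02% in mice 8, 14 and 2. Without this copy L1Md_T made up 2.45% ± 0.18 (SD, n = 13) of the L1 counts of TS-t mice and 2.39% ± 0.19 (SD, n = 9) of those of TS-nt mice (exact two-sided permutation p = 0.45). With the TS-t labels that begin with 20 the log2 fold change of the subfamily was −0.02.

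Of the other named subfamilies, those lower in TS-t were old ones, as was L1MCb among the higher ones. The old groups hold many of the 133 subfamilies: 16 in L1MA and L1MB, 17 in L1MC and L1MD, 27 in L1ME, 24 in L1M1 to L1M8 and 5 in HAL1. L1ME3D had 630, 909 and 1159 CPM in TS-nt and 547, 702 and 821 in TS-t, a log2 fold change of −0.32 ± 0.12 (SE, unadjusted p = 0.011). L1MCa had medians of 3225 and 2959 CPM (log2 fold change −0.10), HAL1ME of 2368 and 1860 CPM (−0.28) and L1MC5 of 7443 and 6610 CPM (−0.15). The single copy HAL1ME_dup301 held 49.9% of the HAL1ME counts and L1ME3D_dup227 26.9% of those of L1ME3D. Higher ones with the lowest p were L1Md_T and 3 others: Lx2 (medians 9492 and 10770 CPM, log2 fold change 0.26, unadjusted p = 0.071), L1MCb (358 and 444 CPM, 0.26, p = 0.088) and Lx5 (14215 and 15145 CPM, 0.12, p = 0.089, p-values from edgeR's quasi-likelihood test).

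**Figure D4:**
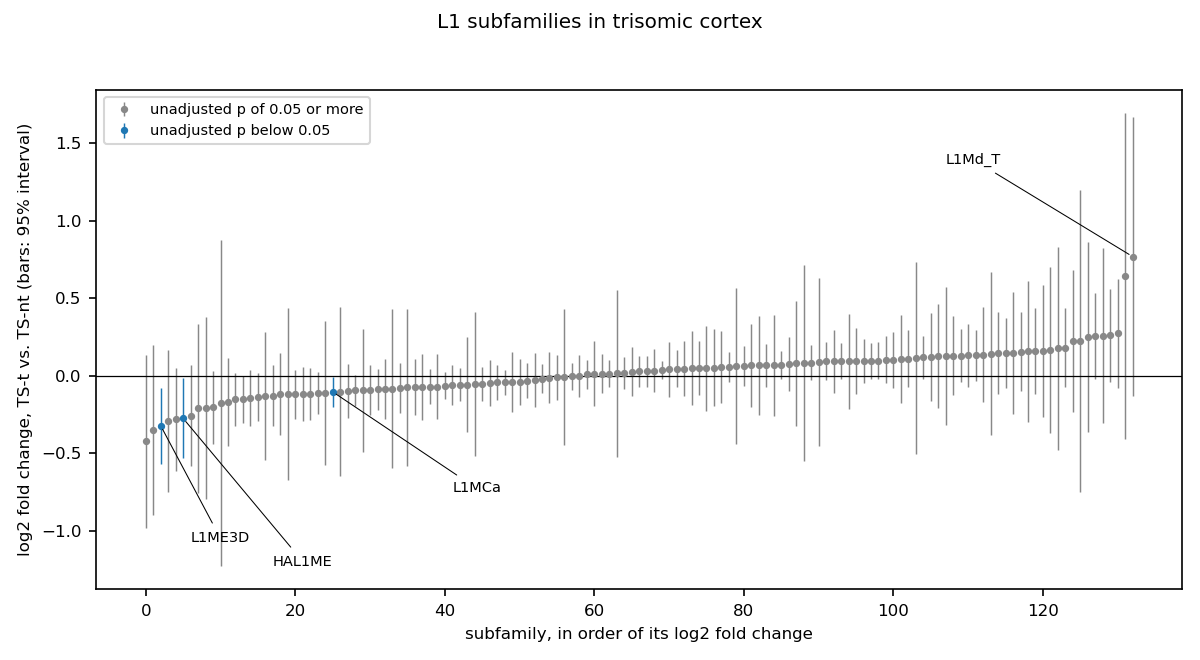
Log2 fold change of TS-t vs. TS-nt in cortex (y axis) of the 133 L1 subfamilies, in the order of their fold change (x axis), with 95% intervals as bars; blue marks an unadjusted p below 0.05. The 3 blue subfamilies, L1ME3D, HAL1ME and L1MCa, are all below 0, and L1Md_T is at the upper end with an interval from −0.13 to 1.67.

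Shares of the L1 counts by class were compared next, since a share needs no scaling factor. The shares of a library have a fixed sum, so a high share of any class lowers those of the others. In mice 8 and 14, L1ME made up 27.5% and 25.5% and L1Md_T 10.7% and 7.23% of the L1 counts. A lower share of another class in such a library need not mean less RNA of that class. Over all 13 TS-t and 9 TS-nt mice, 0 of 17 classes passed an exact two-sided permutation test with Benjamini-Hochberg adjustment over the 17 classes (lowest adjusted p = 0.453), and 0 had an unadjusted p below 0.05. L1MC and L1MD copies made up 8.23%, 8.53% and 8.88% of L1 counts (lowest, median and highest) in TS-nt and 5.68%, 7.98% and 8.79% in TS-t, a mean difference of −0.78 percentage points (exact p = 0.052). HAL1 had a TS-nt mean of 1.39% ± 0.19 (SD, n = 9) against 1.18% ± 0.30 (SD, n = 13) for TS-t, and L1M1 to L1M8 7.05% ± 0.34 and 6.50% ± 0.85. These 3 differences lay with the mice whose labels begin with 18 or 19: with the labels that begin with 20 they were −0.10, −0.02 and −0.06 percentage points.

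L1Md_T and L1ME had higher means in TS-t. L1Md_T made up 2.34%, 2.46% and 3.40% in TS-nt and 2.33%, 2.53% and 10.7% in TS-t, a difference of 1.23 percentage points (exact permutation p = 0.17). L1ME made up 10.1%, 15.1% and 18.9% in TS-nt and 10.4%, 14.8% and 27.5% in TS-t, a difference of 0.85 points (exact permutation p = 0.64). With the TS-t labels that begin with 20 the differences were −0.01 and −1.02 points.

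With those labels, 2 classes of old rodent copies passed. Lx and Lx2 copies made up 4.70%, 5.08% and 5.33% of L1 counts in the 9 TS-nt mice and 5.16%, 5.34% and 5.42% in the 8 TS-t mice, a difference of 0.24 percentage points (exact permutation p = 0.0055, adjusted p = 0.090). All 8 were above the TS-nt median and 4 were above the highest TS-nt mouse. Lx8, Lx9 and Lx10 copies made up 11.8%, 12.5% and 13.3% in TS-nt and 12.7%, 12.9% and 13.9% in TS-t, a difference of 0.54 points (exact permutation p = 0.011, adjusted p = 0.090). Leaving out each of these 17 mice in turn kept both differences above 0, and the adjusted exact permutation p ranged from 0.024 to 0.18 for Lx and Lx2, past the threshold in 8 of 17, and from 0.0053 to 0.21 for Lx8, Lx9 and Lx10, past it in 4 of 17. For Lx8, Lx9 and Lx10 the lowest value was without TS-nt mouse 27 and the highest without TS-t mouse 20. L1Md_F2, at 6.33% in TS-nt, was 0.25 points higher in these TS-t mice (exact permutation p = 0.038, adjusted p = 0.22), and 0.23 points higher (adjusted p = 0.077) when the most abundant element of each library was left out.

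With all 13 TS-t mice the same 2 classes differed by 0.19 points (exact permutation p = 0.37) and −0.10 points (exact permutation p = 0.84), and mice 8 and 14, with labels that begin with 19, had the lowest shares of both. In the hippocampus of the same animals the Lx and Lx2 share was 4.72% ± 0.23 (SD, n = 13) for TS-t against 4.44% ± 0.31 (SD, n = 8) for TS-nt, a difference of 0.28 points (exact permutation p = 0.029, adjusted p = 0.49). Lx8, Lx9 and Lx10 differed there by 0.11 points (exact permutation p = 0.68). In WT cortex Lx and Lx2 had a mean of 5.59% ± 0.78 (SD, n = 9) in WT-nt and 5.12% ± 0.58 (SD, n = 17) in WT-t, the opposite direction. It was 5.15% ± 0.39 (SD, n = 3) in the WT-t mice whose labels begin with 20. Lx8, Lx9 and Lx10 had 12.8% ± 1.04 in WT-nt and 12.3% ± 1.67 in all WT-t. With labels that begin with 20 the WT-t mean was 13.1% ± 0.33 (SD, n = 3), higher than in WT-nt as in TS. Lx2 itself, the subfamily of the Lx and Lx2 class among those named, had a log2 fold change of 0.11 in TS cortex with the labels that begin with 20 (unadjusted p = 0.39 in edgeR's quasi-likelihood test).

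**Figure D5:**
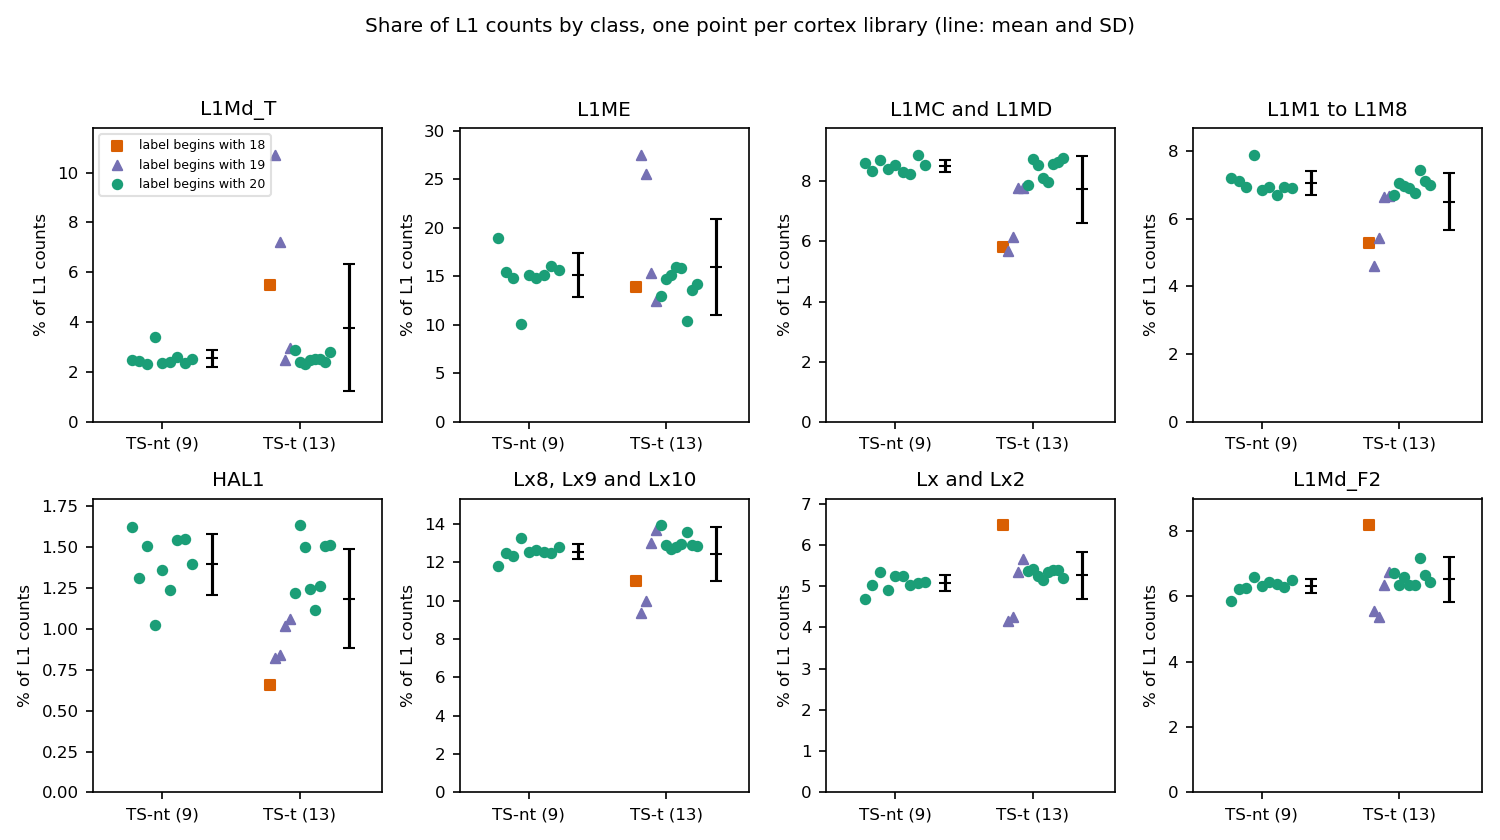
Percent of all L1 counts of a cortex library (y axis) on 8 classes of L1 in TS-nt and TS-t mice, with 1 point per library, the mean and SD as a bar beside the points, and shape and colour for the number the animal label begins with. Mice 2, 8 and 14 stand apart from the other TS-t mice, as in L1Md_T at 5.47%, 10.7% and 7.23%, and without the square and the triangles the Lx and Lx2 points of TS-t are all above the TS-nt median of 5.08%.

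The treatment difference of TS cortex was also set against those of other groups. For the difference between cortex and hippocampus of the same mouse, 0 of 17 classes differed between the 13 TS-t and 8 TS-nt mice (lowest adjusted p = 0.562, exact permutation test, 0 classes below an unadjusted 0.05). Animal labels began with 18, 19 and 20 for 6, 8 and 3 of the 17 WT-t mice, and with 20 for all 9 WT-nt mice. The interaction of treatment and genotype in cortex tests whether the difference between treated and non-treated mice differed between TS and WT. With all libraries it cannot tell a different action of lamivudine from the unequal mix of labels. It was called for 0 of 5416 elements (0%) and 0 of 133 subfamilies (0%) by edgeR's quasi-likelihood test. At an unadjusted p below 0.05 were 60 elements (1.11%) and 28 subfamilies (21.1%). Of these elements 36 (0.665%) had the higher and 24 (0.443%) the lower log2 fold change in TS, as did 21 (15.8%) and 7 (5.26%) of the subfamilies, and 50 elements (0.923%) also passed the second threshold. The lowest adjusted p of a subfamily was 0.181. Among the subfamilies named, Lx2 had log2 fold changes of 0.26 in TS and −0.32 in WT (unadjusted interaction p = 0.0039), L1Md_A of 0.13 and −0.22 (p = 0.013) and L1Md_F2 of 0.13 and −0.15 (p = 0.020), all with an adjusted p of 0.181 in edgeR's quasi-likelihood test. L1MCb, Lx5 and L1Md_Gf also had the higher value in TS at an unadjusted p of 0.032, 0.032 and 0.034. In the other direction L1ME3D had log2 fold changes of −0.32 in TS and 0.05 in WT (unadjusted interaction p = 0.034), and L1MCa of −0.10 and 0.03 (p = 0.044). DESeq2 called 15 subfamilies for the interaction, 13 with the higher and 2 with the lower value in TS, and 0 elements (212 at an unadjusted p below 0.05). It gave no adjusted p for 88 of the 133 subfamilies, so its adjustment covered fewer subfamilies than edgeR's, and its lowest adjusted p was 0.089. Without the libraries far on the first principal component 7 subfamilies were at an unadjusted p below 0.05 (lowest adjusted p = 0.605 in edgeR's quasi-likelihood test). With treated mice whose labels begin with 20 it was 1 (0.721). Only 8 TS-t and 3 WT-t libraries remained there, so that less could be seen than with all libraries.

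The study lists 6 L1 elements as rescued in cortex by setting TS-nt and TS-t against WT-nt, and 5 of them are described. The list rests on the same TS-nt libraries, so that values in TS cortex are a description and no independent evidence. L1MA4_dup880 (chr2:112471514-112471892), in the untranslated part of an Emc7 exon, had 888, 1427 and 1937 CPM in TS-nt and 649, 1142 and 1972 in TS-t, a log2 fold change of −0.31 (95% interval −0.80 to 0.18). Lx2A_dup118 (chr2:73337473-73337529), in the untranslated part of a Scrn3 exon, had medians of 154 and 105 CPM and a log2 fold change of −0.60 (−1.46 to 0.26). Their medians in WT-nt were 970 and 67.9 CPM, so that the TS-t median was between those of TS-nt and WT-nt for both.

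Another 3 lay in introns, of the long non-coding RNA gene A230057D06Rik for Lx7_dup14700, and all but Lx8_dup23295 were on the opposite strand of their gene. L1_Mus2_dup18345 (chr15:20551458-20554617), in an intron of the cadherin gene Cdh12, had medians of 23.3 CPM in TS-nt and 58.7 in TS-t. In WT-nt its median was 81.4 CPM and in WT-t 36.7 (log2 fold change −1.08). For TS-t vs. TS-nt the log2 fold change was 0.71 (unadjusted p = 0.23 in edgeR's quasi-likelihood test). Over 31 alternatives this value ranged from 0.54 to 1.42. The highest (unadjusted p = 0.032 in the same test) was without TS-nt mouse 27, which held the highest TS-nt value. With the TS-t labels that begin with 20 it was 0.78, and without mice 2, 8 and 14 it was 0.70. Lx8_dup23295, in an intron of Ints14, had 2 counts in the 9 TS-nt and 29 in the 13 TS-t libraries, Lx7_dup14700 had 37 and 47, and neither passed the filter. The direct comparison of TS-t with TS-nt called none of the 3 described here that were tested (adjusted p = 1.00 in edgeR's quasi-likelihood test).

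The 4 elements listed as rescued in hippocampus had fold changes of smaller size in cortex than in hippocampus, a difference between tissues that was not tested. They were listed by their values in these same hippocampus libraries, so larger fold changes there are no independent evidence of a difference between tissues. Lx7_dup11750 (medians 1543 CPM in TS-nt and 1550 in TS-t), L1_Mus3_dup17767 (55.4 and 68.8) and L1Md_F2_dup5854 (97.9 and 107) had log2 fold changes of −0.04, −0.0039 and −0.06 in TS cortex, beside 0.45, 1.17 and −0.69 in TS hippocampus. For Lx5c_dup5368 they were 0.82 and 1.42, with medians of 0 and 61.9 CPM in cortex, where 4 of 9 TS-nt and 12 of 13 TS-t libraries had a count. Of the 2 copies the study lists for trisomy in both tissues, L1_Mm_dup4871 (chr16:31386704-31387928, in no annotated gene) had medians of 3055 CPM in TS-nt and 3148 in TS-t, and L1Md_F2_dup59906 in the pseudogene Gm21926 1902 and 1623 CPM. Their log2 fold changes were −0.19 (95% interval −0.64 to 0.26) and −0.22 (−0.72 to 0.28), and both were above their WT-nt medians of 1632 and 1219 CPM by their medians in TS-t as in TS-nt.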

How the data were processed

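Counts were used as the authors deposited them: total RNA libraries (TruSeq Stranded, ribosomal RNA depleted) were trimmed with Trimmomatic 0.38, aligned to GRCm38/mm10 with HISAT2 2.1.0 (at most 5 alignments kept for a read), and counted on RepeatMasker L1 elements with Telescope (version not given in the sources used here), which assigns a multi-mapped read to the most probable copy. The deposited counts were whole numbers and not normalized.

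Elements were filtered with filterByExpr (minimum count 10, minimum total 15) and tested in R 4.3.3 with edgeR 4.0.16 (TMM, estimateDisp, glmQLFit robust, glmQLFTest) in a model of the 48 cortex libraries with 4 groups. The contrast was TS-t minus TS-nt and the threshold a Benjamini-Hochberg adjusted p of 0.1. Counts summed by subfamily (the name before _dup) were tested likewise, and the SE of a log2 fold change is its size divided by the square root of F. Shares were tested by exact two-sided permutation of the 22 libraries (Python 3.11.15, numpy 2.4.6) with adjustment over 17 classes set by subfamily name; 5 subfamilies were in no class. p-values measure the spread between libraries, which may be pools. Both scripts were tested on simulated data. Alternatives were DESeq2 1.42.0, other scaling, filters and thresholds, and leaving out libraries.

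Named elements were the 8 higher and 8 lower with the lowest unadjusted p, the 6 most abundant in TS cortex, and those the study lists as rescued or for trisomy in both tissues; named subfamilies were the 6 L1Md subfamilies and the 4 higher and 4 lower with the lowest p. The comparison, classes and lists were chosen with earlier results of these data known. Positions are those of the study's element list, compared with GENCODE vM21; for other elements none is given, and 1 element listed as rescued in cortex is not reported here. Leaving out mice 2, 8 and 14, leaving out single libraries among labels that begin with 20, L1Md_T without its largest copy and the hippocampus test were added after the data were seen.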

Additional observations from a re-analysis of the deposited data

Results flagged for a closer look

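In TS-nt cortex 25 of 67 values tested had 1 mouse far from the other 8 by Dixon's criterion for 9 samples at the 95% level, which chance alone would give in about 1 in 20 groups, and the values of 1 mouse are not independent of each other. The 13 TS-t mice are too many for this criterion.

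Mouse 27 was the outlying one in 16 of them. It had an L1 total of 763030 counts, 132569 elements with a count, and shares of L1 counts of 3.40% for L1Md_T, 6.64% for L1_Mur, L1VL and L1_Rod, 4.77% for Lx7, 9.94% for L1MA and L1MB, 10.1% for L1ME and 7.88% for L1M1 to L1M8. In single elements it had 166 CPM of Lx7_dup34282, 67.1 of Lx8_dup374, 1143 of L1MA7_dup1680, 13897 of L1Md_T_dup9904, 144 of L1_Mus2_dup18345 and 76.7 of Lx7_dup14700. Summed by subfamily it had 29872 CPM of L1Md_T, the highest, and 1340 CPM of HAL1ME, the lowest of the TS-nt mice.

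Mouse 23 was outlying in 5 values: 8.19% of its L1 counts were on its most abundant element, its shares were 5.87% for L1Md_F2 and 1.72% for L1Md_F and L1Md_F3, and it had 154 CPM of Lx6_dup5624 and 135381 of L1MEd_dup2089. Mouse 26 was outlying for L1_Mus3_dup180 (47.6 CPM) and Lx8_dup23295 (6.80 CPM), mouse 34 for L1Md_T_dup15520 (254 CPM) and mouse 41 for Lx5c_dup5368 (192 CPM).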

How the results depend on the processing

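Differences are TS-t minus TS-nt in cortex. No element was called under the other scalings, tools and subsets of libraries tried, but edgeR called 12765 elements with at least 10 counts in total and 10433 with no filter, at adjusted p-values of 0.055 to 0.10 (0.078 to 0.10 with no filter). These had a median of 9 and 7 counts over the 22 libraries, in a median of 2 libraries, 1 and 0 of them passed the usual filter, and DESeq2 called 0 with at least 10 counts; the cause was not tested. The second threshold gave 12 elements, and DESeq2, with no adjusted p for 88 of 133 subfamilies, called 15 for the interaction. For shares, 2 classes passed with the TS-t labels that begin with 20 and 2 without mice 2, 8 and 14. Leaving out single libraries called 0 elements and 0 subfamilies each time. No paired analysis was possible because TS-t and TS-nt mice were different animals and shared no number.

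With the TS-t labels that begin with 20 the log2 fold change turned to −0.25 for L1MEd_dup2089, −0.0099 for L1ME3Cz_dup549, −0.17 for L1Md_T_dup9904, −0.00021 for L1MEi_dup274, −0.080 for L1MC4_dup2661, 0.11 for L1_Mus3_dup17767, 0.042 for Lx7_dup11750 and 0.22 for L1Md_F2_dup5854. For subfamilies it turned to −0.019 for L1Md_T, −0.017 for L1Md_Gf, −0.031 for L1Md_F and −0.014 for L1Md_F3. In percentage points, shares turned to −0.011 for L1Md_T, 0.0085 for Lx7, 0.54 for Lx8, Lx9 and Lx10, 0.050 for L1MA and L1MB and −1.02 for L1ME. The L1 total turned to −7015 counts, elements with a count to 3667 and the share of the most abundant element to −0.49 points.

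Without mice 2, 8 and 14 the values turned to −0.21 for L1MEd_dup2089, −0.018 for L1Md_T_dup9904, −0.010 for L1MC4_dup2661, 0.10 for L1_Mus3_dup17767, 0.032 for L1Md_F2_dup5854, −0.0091 for the subfamily L1Md_Gf and −0.011 for L1Md_F, and the shares to 0.013 for Lx7, 0.59 for Lx8, Lx9 and Lx10 and −1.06 for L1ME. Without the libraries far on the first component they turned to −0.029 for L1MC4_dup2661, 0.039 for L1_Mus3_dup17767, 0.018 for Lx7_dup11750, 0.19 for L1Md_F2_dup5854, −0.0093 for the subfamily L1Md_Gf, 0.22 for the share of Lx8, Lx9 and Lx10 and −21321 for the L1 total.

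Other tools and scalings turned values near 0. L1_Mus3_dup17767 was at 0.0018 with DESeq2, 0.011 with DESeq2 and 0.0091 with edgeR on TS libraries alone, 0.0021 with DESeq2's size factors and 0.0013 with DESeq2 and at least 10 counts. Lx7_dup11750 was at 0.025, 0.0070 (DESeq2, TS alone), 0.026 and 0.024, and L1Md_F2_dup5854 at 0.0082, 0.0072 and 0.0075 (DESeq2, its size factors, at least 10 counts). L1MC4_dup2661 was at −0.048 with at least 10 counts and −0.056 with no filter. On ranks the differences were 0.47 for L1Md_Gf, 2.73 for L1_Mur, L1VL and L1_Rod, 4.42 for Lx8, Lx9 and Lx10, −1.79 for L1ME and 2.91 for elements with a count (0.082 on the log2 scale). Without the most abundant element shares differed by 0.00052 for L1Md_Gf, 0.093 for Lx8, Lx9 and Lx10 and −0.68 for L1ME.

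Leaving out each replicate in turn moved the log2 fold change from −0.055 to 0.099 for L1MC4_dup2661, −0.13 to 0.23 for L1_Mus3_dup17767, −0.080 to 0.0042 for Lx7_dup11750, −0.23 to 0.094 for L1Md_F2_dup5854 and −0.38 to 0.13 for Lx3B_dup3459, and the share from −0.0052 to 0.0039 for L1Md_Gf, −0.054 to 0.25 for L1_Mus and L1_Mm, −0.19 to 0.17 for L1_Mur, L1VL and L1_Rod, −0.026 to 0.12 for Lx5 and Lx6, −0.23 to 0.16 for Lx8, Lx9 and Lx10 and −0.11 to 1.33 for L1ME. None of the turned values passed the threshold except the share of Lx8, Lx9 and Lx10. Of the values not counted above, 1808 kept direction and side of the threshold, and the other 2, for Lx and Lx2, came to pass it.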

Other observations

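The copies that set single TS libraries apart were also found in WT cortex. L1Md_T_dup9904 had 50000 CPM or more, a limit set after the values were seen, in 3 of 13 TS-t and 0 of 9 TS-nt cortex libraries, and in 2 of 17 WT-t and 1 of 9 WT-nt. The highest values were 199331 CPM in TS-t, 196915 in WT-t and 182971 in WT-nt. Both WT-t mice had labels that begin with 18, and the WT-nt mouse had a label that begins with 20. No hippocampus library reached this level. Lx3B_dup3459 was below 1000 CPM in the cortex of 3 of 9 WT-nt and 3 of 17 WT-t mice.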
